A study of Mus musculus with 36 samples.

Results

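Untreated liver of mice with wild-type p53 (wt) was set against the untreated spleen and thymus of wt mice, using the 9 paired-end RNA sequencing libraries whose titles name these organs and no treatment, out of 36 libraries in the series. Each organ had 3 libraries, and the main contrast was the liver mean minus the mean of the spleen and thymus means. The study asks what the C-terminus of p53 does in these organs and after radiation. No age or strain of the mice is stated in the labels, which also do not say whether the organs came from the same animals, so p-values measure the spread between these libraries. The same contrast in 9 paired-end wt libraries taken 3 h after X-rays of 2 Gy and in 9 single-end wt libraries titled xray was used for comparison. The treatment label of the 3 single-end spleen libraries reads control, against their titles, so what they received is uncertain. No group here carries a deletion or a transgene. Values are the deposited signal, which is reads per 1000000 of a library size scaled for composition, and differences are on the scale of log2(signal + 0.5), shown with their standard error. In pieces of whole organ, fewer cells of a type and less RNA per cell cannot be told apart.

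The liver is built mostly of hepatocytes, long-lived cells that seldom divide and that make plasma proteins, bile acids, urea and glucose. Spleen and thymus are filled with lymphocytes and their precursors, and in the mouse the spleen also makes red blood cells. After DNA damage the transcription factor p53, held low at rest by Mdm2 and Mdm4, switches on genes that stop the cell cycle and genes that act through the BCL2 family and the caspases to kill the cell, and lymphoid organs are known to lose cells after doses that the liver withstands.

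The libraries held between 44348579 and 65323423 reads in the table. Of 15141 genes with enough signal, 6603 (43.6%) were called higher in liver and 6807 (45%) lower at an adjusted p under 0.05 (limma with Benjamini-Hochberg adjustment). Since 88.6% of all genes were called, a count of called members says little. For the pathway lists in the untreated contrast, differences of at least 1 on the log2 scale are counted beside it. That size, chosen after the data were seen, was reached by 28% of genes upward and 26% downward. The direction of moderate differences depended on scaling, because the deposited liver columns summed to 1856580 to 1974820 against 589786 to 964001 in the lymphoid organs. With columns scaled to equal totals the median of all genes moved from -0.03 to -1.26 and the calls became 3132 higher and 10950 lower, with quantile scaling they were 5377 and 8104, and with median-ratio scaling 6476 and 6947.

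The labelled organs carried their own markers. All 9 hepatocyte markers were called higher in liver. Against spleen alone, 6497 of all 15141 genes were called higher in liver and 6508 lower. Of 7 Kupffer cell markers 5 were called higher in the main contrast and 2 were not called. Against spleen, which has macrophages of its own, 3 of these markers were higher and 1 lower. The Kupffer cell gene Clec4f had the highest difference of them and stood at 220.0, 198 and 188 in liver and at no more than 0.541 elsewhere, and the sinusoidal endothelial gene Clec4g at 114, 116 and 85.6 in liver and no more than 0.555 elsewhere. The thymocyte gene Rag1 read 3.42, 1.06 and 1.94 in liver, 4.38, 7.26 and 9.66 in spleen and 1525, 1918 and 1841 in thymus. Erythroid genes were a large part of spleen, where the red cell membrane gene Slc4a1 was 5722, 5059.9 and 5646 against 48.6, 60.4 and 22.4 in liver and 20.8, 9.39 and 12.5 in thymus. Hepatocyte transcripts were also read at low levels in the lymphoid organs, most in thymus replicate 1, where the summed level of the 9 markers reached 214 against 60.3 in the lowest thymus library and 329631 to 375368 in liver. Thymus replicate 3 had the highest signal of the adipocyte gene Cfd, 8.99, 1.99 and 58.9 in the 3 thymus libraries. Replicate 1 of each organ had Xist signal of 442 to 589 and almost none from the Y chromosome, and replicates 2 and 3 the reverse, so this split was the same in the 3 organs.

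**Figure D1:**
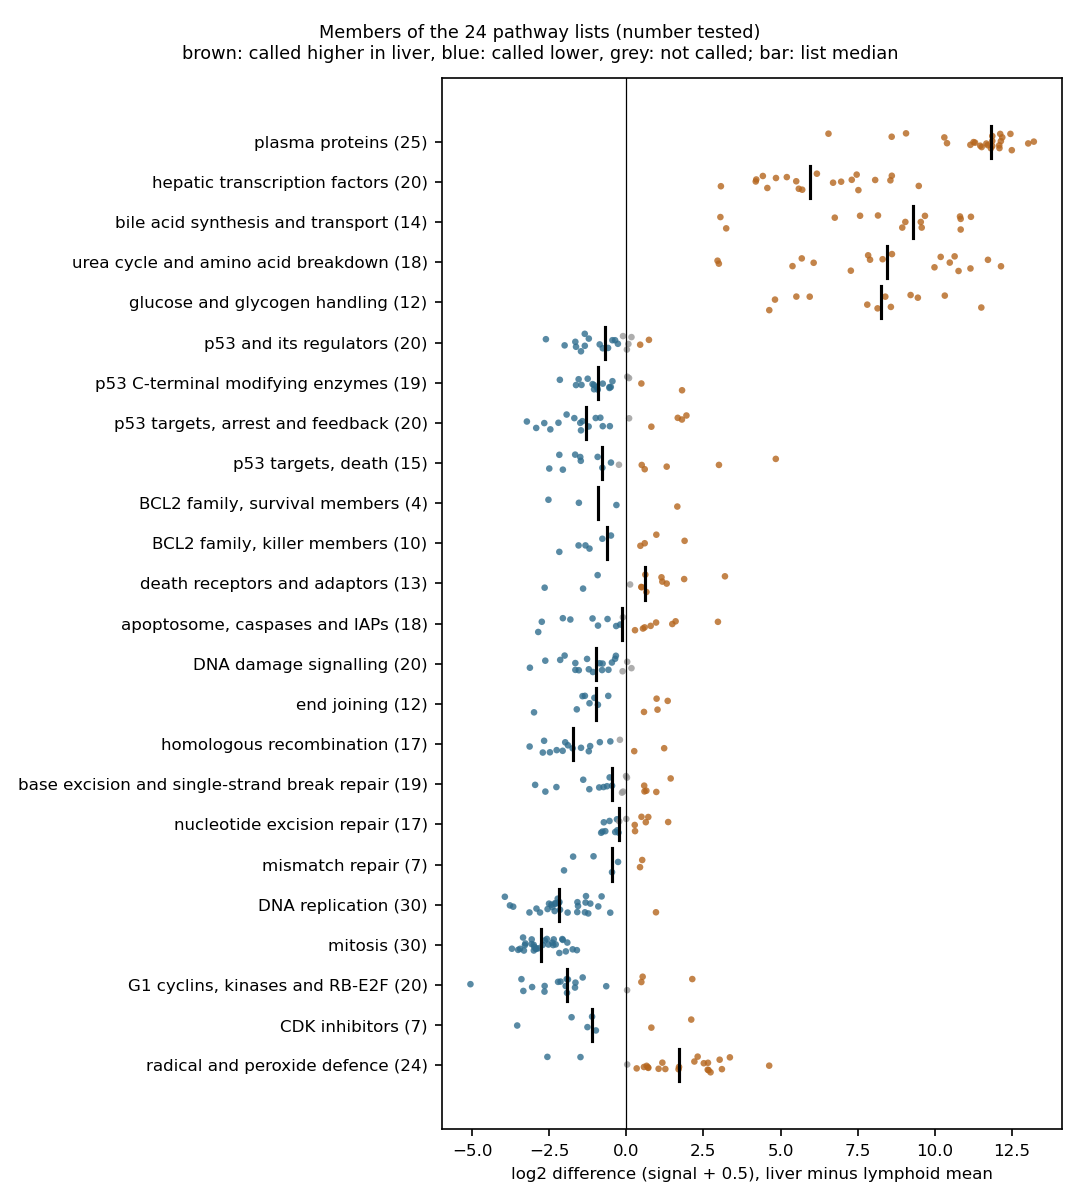
Each point is 1 gene, placed by its log2 difference between untreated liver and the mean of untreated spleen and thymus, in rows for the 24 pathway lists with the number of members tested in parentheses. The 5 lists of liver functions lie wholly to the right, with medians from 5.94 to 11.82, and the mitosis list lies wholly to the left, with a median of -2.78.

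Genes of liver identity had the highest medians of the 24 lists. All 25 plasma protein genes, 20 hepatic transcription factors, 14 bile acid genes, 18 genes of the urea cycle and amino acid breakdown and 12 of glucose and glycogen handling were called higher in liver, each by a log2 of at least 1. The list medians were 11.82, 5.94, 9.30, 8.46 and 8.27 in that order, against -0.03 over all genes, and every one of these genes stayed higher under each of the 3 other scalings. Each liver library lay above each lymphoid library in all of them except the phospholipid transporter Abcb4, named after its values were seen, which was 271, 248 and 230.1 in liver, 242, 231 and 238 in spleen and 4.14, 3.13 and 2.81 in thymus. Over all genes 35.9% had liver above all lymphoid libraries.

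Alb (chr5:90460870-90476602), which encodes serum albumin, had the highest difference of all genes tested (positions are those of RefSeq on GRCm38.p6). Its signal was 247694, 257546 and 235659 in liver, 22.0, 15.1 and 29.5 in spleen and 116, 14.9 and 16.1 in thymus, a log2 difference of 13.21 ± 0.51 (adjusted p 1.15e-10). No lymphoid library came near the liver, and thymus replicate 1 was the highest of the lymphoid libraries. Without that library the difference was 13.69. Ahsg, a plasma glycoprotein made by hepatocytes, differed by 13.03 ± 0.50, the fibrinogen chains Fga and Fgb by 12.50 ± 0.39 and 12.19 ± 0.32, and the drug-metabolising enzyme Cyp3a11 by 12.31 ± 0.40. The same thymus library led the lymphoid values of all these genes (Fgb 3.35, 0.614 and 0.703 in thymus).

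Among transcription factors, Hnf4a (chr2:163506811-163572907), a nuclear receptor that sustains the hepatocyte programme, was 1006, 1034 and 834 in liver, 0.555, 0.545 and 0.323 in spleen and 1.43, 1.39 and 1.22 in thymus, a difference of 9.48 ± 0.11 (adjusted p 7.42e-15). Foxa3, a forkhead factor that opens liver enhancers, was 64.9, 70.0 and 70.2 in liver, 0.0370, 0 and 0 in spleen and 0.103, 0.0694 and 0.108 in thymus, a difference of 6.96 ± 0.09. The bile acid receptor Nr1h4 and the nuclear receptor Nr5a2 differed by 8.07 ± 0.12 and 6.70 ± 0.09. In all 4 factors the lymphoid values were a small fraction of the lowest liver value.

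Metabolic enzymes showed the same separation. Cyp7a1, the rate-limiting enzyme of bile acid synthesis, was 515, 368 and 392 in liver, 0.0555, 0.0312 and 0.0569 in spleen and 0.155, 0.00991 and 0.0811 in thymus, a difference of 9.55 ± 0.13, and the bile salt export pump Abcb11 differed by 10.84 ± 0.16. In the urea cycle Ass1, argininosuccinate synthase, was 6882, 7344 and 7052 in liver, 21.9, 22.1 and 20.7 in spleen and 43.1, 34.4 and 41.3 in thymus, so that it was lowest in the spleen and far from 0 in both lymphoid organs. Arg1, arginase, and Otc, ornithine transcarbamylase, differed by 10.64 ± 0.11 and 10.77 ± 0.14. Fbp1, which carries out a late step of glucose synthesis, differed by 10.32 ± 0.14, and the glucose transporter Slc2a2 by 9.45 ± 0.14.

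Promoter letters are shown for 3 liver genes, since HNF1 factors, which liver cells hold, bind paired copies of a word close to GTTAAT. Among RefSeq windows of 250 bases before the start (GRCm38.p6, both strands), this word was found in 6.43% of all 32851 windows, in 4 of 22 windows (18.2%) of plasma protein genes and in 4 of 25 (16%) of hepatic transcription factor genes. These windows covered 20 of the 25 plasma protein genes and 17 of the 20 transcription factor genes. The 120 bases before the start follow, 5′ to 3′ on the gene's strand, with the word or its reverse complement in capitals. RefSeq lists 2 such windows for Hnf4a, and the one shown belongs to the start inside the gene, since the 120 bases before the other start, at its edge, do not hold the word.
Alb, chr5:90460750-90460869, + strand: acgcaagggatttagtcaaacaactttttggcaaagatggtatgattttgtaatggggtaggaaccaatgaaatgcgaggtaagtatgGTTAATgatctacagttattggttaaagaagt
Fgb, chr3:83049864-83049983, - strand: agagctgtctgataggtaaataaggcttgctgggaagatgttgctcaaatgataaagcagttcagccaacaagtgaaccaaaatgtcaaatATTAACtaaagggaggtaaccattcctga
Hnf4a, chr2:163547035-163547154, + strand: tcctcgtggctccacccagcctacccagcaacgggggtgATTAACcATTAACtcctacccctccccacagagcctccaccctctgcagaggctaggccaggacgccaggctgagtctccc
A match is a description of the letters and not a test of binding.

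p53 itself was read at a lower level in liver. Trp53 (chr11:69580348-69591873) was 39.8, 41.3 and 46.8 in liver, 114, 128 and 124 in spleen and 94.0, 95.9 and 101 in thymus, a log2 difference of -1.34 ± 0.07 (adjusted p 1.92e-09), and no liver library overlapped a lymphoid one. Of 20 tested genes for p53 and its regulators, 14 were called lower in liver and 2 higher, while Cop1, Rchy1, Ppp1r13l and Atr were not called, with a median of -0.68, and 8 were lower by a log2 of at least 1. The ubiquitin ligase Mdm2 (chr10:117688875-117710758), which marks p53 for degradation, was 30.3, 32.1 and 33.5 in liver, 47.2, 42.6 and 47.6 in spleen and 64.4, 65.5 and 65.0 in thymus, a difference of -0.76 ± 0.06 (adjusted p 2.08e-07). Its partner Mdm4 was 24.04, 21.1 and 22.1 in liver, 31.9, 36.7 and 31.5 in spleen and 43.1, 56.6 and 53.1 in thymus, a difference of -0.86 ± 0.10. Both lay below every lymphoid library, but by less than Trp53 did.

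A ratio of 2 genes within a library is not changed by a factor applied to the whole library, as in column-total or median-ratio scaling, though quantile scaling can change it, so the inhibitors were also set against p53 in this way, with the pairs chosen after the data were seen and without a test. The log2 ratio of Mdm2 to Trp53 was -0.41 ± 0.06 in liver, -1.41 ± 0.16 in spleen and -0.58 ± 0.05 in thymus (SD, n = 3), and each liver library was above each lymphoid one. That of Mdm4 to Trp53 was -0.93 ± 0.18 in liver, -1.87 ± 0.09 in spleen and -0.94 ± 0.18 in thymus, and liver overlapped thymus. Liver thus had more Mdm2 signal per Trp53 signal than the lymphoid mean, by 0.58, and lay nearer to thymus than to spleen.

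Kinases that pass the damage signal to p53 were not uniformly low. Chek1 and Chek2, checkpoint kinases, differed by -2.00 ± 0.18 and -1.65 ± 0.08, and Chek2 was 7.003, 8.77 and 7.69 in liver, 54.4, 54.5 and 55.0 in spleen and 11.9, 12.3 and 11.2 in thymus. Atm, which senses double-strand breaks, was 30.5, 25.5 and 24.6 in liver, 30.9, 32.3 and 26.3 in spleen and 36.7, 39.0 and 45.0 in thymus, a difference of -0.36 ± 0.10 (adjusted p 0.00436) in which liver overlapped spleen. Atr, which senses stalled replication forks, was 26.9, 25.5 and 25.6 in liver, 22.4, 27.5 and 20.2 in spleen and 21.1, 24.4 and 23.5 in thymus and was not called (adjusted p 0.12), though it was called higher without spleen replicate 2, at 0.23. Usp7, which removes ubiquitin from Mdm2 and p53, was 123, 107 and 120.2 in liver, 505, 514 and 503 in spleen and 248, 263 and 263 in thymus, a difference of -1.63 ± 0.06, and the phosphatase Ppm1d, which turns the p53 response off, was 13.7, 12.3 and 12.0 in liver, 62.3, 51.2 and 63.3 in spleen and 22.9, 20.5 and 22.3 in thymus, a difference of -1.47 ± 0.09. For both genes the spleen was highest and the liver lowest. Trp53bp2, a cofactor that steers p53 to death genes, was the clearest of the 2 regulators called higher, at 0.73 ± 0.08, with liver overlapping thymus and with a value of -0.60 under column-total scaling. The other, Hipk2, a kinase of p53, was 26.4, 20.9 and 14.7 in liver, 40.2, 45.7 and 39.0 in spleen and 5.33, 4.87 and 4.57 in thymus, below spleen and above thymus, and its difference of 0.45 ± 0.15 was -0.85 under column-total scaling and 0.26, not called, without liver replicate 1. Trp73 and Cdkn2a did not have enough signal to be tested.

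The p53 C-terminus is modified by acetylating, methylating and deacetylating enzymes, and these were of interest because the study concerns that end of the protein. The list used also held some proteins that are not such enzymes, and shared members with that of p53 regulators. Of its 19 genes tested, 15 were called lower in liver and 2 higher, with a median of -0.92. A log2 of at least 1 was reached by 8 of those lower and 1 of those higher. Setd7, a methyltransferase of p53, was 16.8, 11.9 and 11.0 in liver, 32.4, 31.8 and 27.8 in spleen and 108, 124 and 117 in thymus, a difference of -2.15 ± 0.12 (adjusted p 3.24e-09), with the thymus far above both other organs. The deacetylases Hdac1 and Sirt1 differed by -1.54 ± 0.07 and -1.45 ± 0.10 and the acetyltransferase Ep300 by -0.95 ± 0.08, all 3 below every lymphoid library. Kat2b, also an acetyltransferase, went the other way. It was 207, 189 and 183 in liver, 75.8, 69.1 and 67.0 in spleen and 40.0, 43.4 and 43.7 in thymus, a difference of 1.81 ± 0.07 (adjusted p 8.45e-11), and it stayed higher under column-total scaling, at 0.45. The methyltransferase Smyd2 was higher by 0.49 ± 0.08, but lower under column-total scaling, at -0.84. Kat8 and Ehmt2 were not called (adjusted p 0.272 and 0.648).

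**Figure D2:**
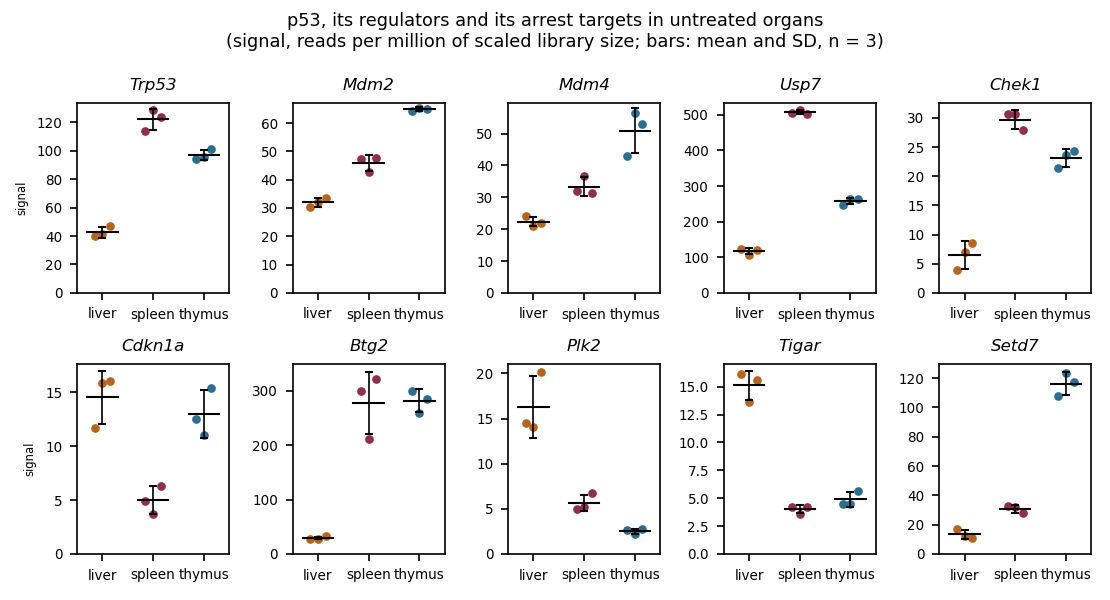
Points are single libraries of untreated liver, spleen and thymus, on a linear signal axis that starts at 0 for each gene, with the mean and SD of 3 libraries. Trp53, Mdm2, Mdm4, Usp7, Chek1, Btg2 and Setd7 are lowest in liver, Plk2 and Tigar are highest there, and Cdkn1a in liver overlaps thymus.

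Targets of p53 for arrest and feedback were read at rest as follows. Of 20 tested, 15 were called lower in liver and 4 higher, and 11 were lower by a log2 of at least 1, with a median of -1.32. Cdkn1a (chr17:29090979-29100722), the cyclin-dependent kinase inhibitor p21, was 11.7, 15.9 and 16.0 in liver, 4.88, 3.74 and 6.32 in spleen and 12.5, 11.1 and 15.4 in thymus. Liver was above spleen by 1.47 ± 0.19 (adjusted p 1.14e-05) and overlapped thymus, where the difference of 0.16 ± 0.19 was not called (adjusted p 0.445). Its contrast with both organs was 0.81 ± 0.16 as deposited and -0.49 under column-total scaling, so its direction rests on the scaling.

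The antiproliferative gene Btg2 (chr1:134074865-134079155) had the lowest value of the list. It was 28.2, 27.5 and 32.3 in liver, 299, 212 and 321 in spleen and 301, 259 and 286 in thymus, a difference of -3.22 ± 0.12 (adjusted p 6.47e-11), and the values of spleen and thymus overlapped. Sfn, a 14-3-3 protein that restrains entry into mitosis, and Gtse1, which dampens p53 in late cell cycle, differed by -2.92 ± 0.11 and -2.66 ± 0.10. Gadd45a, a damage-inducible stress gene, was 5.18, 7.35 and 4.51 in liver, 81.3, 55.3 and 74.1 in spleen and 6.05, 8.26 and 7.46 in thymus, high in spleen only, and liver overlapped thymus. Trp53inp1, a p53 partner, was instead high in thymus only, 44.2, 41.4 and 38.4 in liver, 48.5, 41.5 and 39.0 in spleen and 300.0, 329 and 324 in thymus.

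Genes higher in liver were the polo-like kinases Plk2 and Plk3 and the sugar phosphatase Tigar, along with Cdkn1a. Plk2 was 14.5, 14.1 and 20.2 in liver, 5.03, 5.25 and 6.70 in spleen and 2.60, 2.18 and 2.74 in thymus, a difference of 1.95 ± 0.14 (adjusted p 4.21e-08). Plk3 was 15.2, 16.1 and 9.51 in liver, 3.00, 3.05 and 4.44 in spleen and 3.21, 3.45 and 3.69 in thymus, a difference of 1.80 ± 0.17. Tigar, which lowers glycolysis and spares reducing power, was 16.2, 13.7 and 15.6 in liver, 4.18, 3.61 and 4.23 in spleen and 4.50, 4.50 and 5.65 in thymus, a difference of 1.67 ± 0.11. In each of the 3 genes every liver library lay above every lymphoid one, and the differences under column-total scaling were 0.68, 0.53 and 0.38. Tigar was not called in the single-end table, where its value was 0.09. Zmat3, an RNA-binding target, was not called (adjusted p 0.506).

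Death targets of p53 split as deposited, with 3 higher and 6 lower by a log2 of at least 1. Of 15 tested, 9 were called lower in liver and 5 higher, and Aen was not called (adjusted p 0.0711), though it was called lower without liver replicate 3 or spleen replicate 1, at -0.35 and -0.30, and also with median-ratio (-0.28), quantile (-0.59) and column-total scaling (-1.56), edgeR (-0.29) and DESeq2 (-0.31). The highest was Perp (chr10:18845071-18857073), a membrane protein of cell junctions that p53 also induces, at 124, 135 and 124 in liver, 0.111, 0.312 and 0.285 in spleen and 27.8, 25.2 and 27.3 in thymus, a difference of 4.85 ± 0.10 (adjusted p 4.11e-13) and almost no signal in spleen. Ei24 (chr9:36779153-36797334), an endoplasmic reticulum protein first found as induced by etoposide, was 336, 359.6 and 371 in liver, 53.1, 51.1 and 49.9 in spleen and 35.7, 38.6 and 38.1 in thymus, a difference of 3.00 ± 0.06 (adjusted p 2.54e-13). Both stayed higher under column-total scaling, at 3.53 and 1.65, where 2 of the death targets were called higher and 12 lower. Bbc3 (chr7:16308398-16318334), the BH3-only killer PUMA, was low in all organs, at 6.25, 4.53 and 4.39 in liver, 3.42, 2.79 and 4.06 in spleen and 3.02, 2.56 and 3.14 in thymus. Its difference of 0.60 ± 0.14 (adjusted p 0.00169) turned to -0.60 under column-total scaling. The remaining 2 called higher were Fas, described with the receptors, and the ligand TRAIL, Tnfsf10, whose difference of 0.50 ± 0.16 was -0.79 under column-total scaling and 0.27, not called, without liver replicate 1.

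The other death targets were higher in the lymphoid organs. Apaf1 (chr10:90989311-91082743), the scaffold of the apoptosome, was 9.74, 10.8 and 9.51 in liver, 44.0, 44.9 and 39.4 in spleen and 40.8, 48.9 and 41.6 in thymus, a difference of -2.06 ± 0.08 (adjusted p 1.9e-10). Pidd1, which assembles a complex that activates caspase-2, was 2.64, 3.33 and 3.00 in liver, 29.8, 31.9 and 31.2 in spleen and 11.2, 14.3 and 10.1 in thymus, a difference of -2.50 ± 0.12. Pmaip1, the BH3-only killer NOXA, was 1.07, 0.756 and 1.42 in liver, 4.75, 5.90 and 6.39 in spleen and 6.69, 7.01 and 9.11 in thymus, a difference of -2.17 ± 0.16. Liver lay below every lymphoid library in all 3. Bax, the pore former of the mitochondrial membrane, differed less, at 22.5, 24.4 and 20.2 in liver, 37.7, 38.5 and 40.3 in spleen and 27.8, 25.0 and 24.9 in thymus, a difference of -0.50 ± 0.08 (adjusted p 6.46e-05), and its gap to thymus of -0.21 ± 0.09 was small.

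In the BCL2 family, survival genes did not move as 1 group. Bcl2 (chr1:106538176-106714290), the founding inhibitor of apoptosis, was 4.01, 3.48 and 3.54 in liver, 20.8, 18.9 and 16.2 in spleen and 31.3, 26.9 and 30.8 in thymus, a difference of -2.52 ± 0.10 (adjusted p 1.43e-10). Bcl2l1, which encodes BCL-XL, was 55.0, 66.0 and 50.0 in liver, 258, 163 and 258 in spleen and 121, 135 and 114 in thymus, a difference of -1.54 ± 0.14. Bcl2l2 (chr14:54883366-54890858), which encodes BCL-W, was higher in liver, at 35.7, 32.3 and 35.7 in liver, 12.8, 11.0 and 10.8 in spleen and 10.2, 9.58 and 9.71 in thymus, a difference of 1.65 ± 0.08 (adjusted p 1.5e-09), and 0.33 under column-total scaling. Mcl1, a short-lived survival protein, differed little, at 134, 128 and 131 in liver, 187, 165 and 184 in spleen and 152, 134 and 165 in thymus, a difference of -0.32 ± 0.07. Of the 4 tested, 3 were thus called lower in liver, 2 of them by a log2 of at least 1. Bcl2l2 was called higher, and Bcl2l10 was not used here.

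Killer genes numbered 10 tested, 6 called lower in liver and 4 higher, with a median of -0.64. By a log2 of at least 1, 4 were lower and 1 was higher. Bak1, the second pore former, was 23.8, 26.8 and 27.0 in liver, 61.8, 69.3 and 68.0 in spleen and 55.8, 54.7 and 50.7 in thymus, a difference of -1.19 ± 0.07. Bcl2l11, the killer BIM, differed by -1.55 ± 0.15 and Bmf by -1.32 ± 0.14, where liver overlapped spleen and the thymus stood apart (90.8, 101 and 73.1). Bik was higher in liver, at 4.07, 7.01 and 3.69 in liver, 1.09, 1.28 and 1.08 in spleen and 0.630, 0.605 and 0.933 in thymus, a difference of 1.89 ± 0.17, and 0.80 under column-total scaling. Bok and Bad were higher by 0.97 ± 0.12 and 0.46 ± 0.10 as deposited but lower under column-total scaling, at -0.30 and -0.84. Hrk had too little signal to be tested.

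Ratios within a library, which a factor applied to the whole library leaves unchanged, were again chosen after the data were seen. The log2 ratio of Bcl2 to Bax was -2.60 ± 0.18 in liver, -1.06 ± 0.23 in spleen and 0.20 ± 0.10 in thymus, and that of Bcl2l1 to Bax was 1.34 ± 0.08 in liver, 2.51 ± 0.38 in spleen and 2.25 ± 0.16 in thymus, in both of which each liver library lay below each lymphoid one. The ratio of Bcl2l2 to Bax was 0.63 ± 0.21 in liver, -1.76 ± 0.18 in spleen and -1.39 ± 0.05 in thymus, with liver above both organs. The ratio of Mcl1 to Bax was 2.55 ± 0.15 in liver, 2.20 ± 0.10 in spleen and 2.53 ± 0.17 in thymus, and liver overlapped thymus. Against the mean of the lymphoid organs these ratios differed by -2.17, -1.04, 2.21 and 0.18.

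Death receptors and their adaptors formed the only death list with a positive median, 0.62, with 9 of 13 called higher and 3 lower. A log2 of at least 1 was reached by 5 upward and 2 downward. Under column-total scaling the median was -0.73 and 7 of the members changed sign. Those lower were Ripk3, Tnf and Tnfrsf10b. The 2 receptors that were higher under all 4 scalings were Ltbr and Tnfrsf1a. Ltbr, the lymphotoxin beta receptor, was 126, 118 and 104 in liver, 11.5, 10.5 and 13.5 in spleen and 13.4, 12.2 and 12.3 in thymus, a difference of 3.20 ± 0.09 (adjusted p 7.75e-12). Tnfrsf1a, the main receptor of tumour necrosis factor, was 158, 138 and 143 in liver, 27.5, 26.7 and 32.8 in spleen and 58.6, 49.4 and 53.5 in thymus, a difference of 1.88 ± 0.08. Both lay above every lymphoid library.

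Fas (chr19:34290647-34327775), the receptor of Fas ligand, was 24.9, 29.9 and 35.3 in liver, 3.09, 2.73 and 3.40 in spleen and 41.4, 42.5 and 39.8 in thymus. Liver was far above spleen, by 3.09 ± 0.13 (adjusted p 2.23e-10), and below thymus, by -0.47 ± 0.13 (adjusted p 0.00429), so that its mean contrast of 1.31 ± 0.11 became -0.02 under column-total scaling. Cflar, which blocks caspase-8 at these receptors, was 130.2, 128 and 122 in liver, 42.8, 38.2 and 37.9 in spleen and 74.7, 77.1 and 86.5 in thymus, a difference of 1.17 ± 0.07 as deposited and -0.19 under column-total scaling. The within-library log2 ratio of Cflar to Casp8, the caspase it blocks, was 1.05 ± 0.15 in liver, -0.06 ± 0.04 in spleen and 0.38 ± 0.12 in thymus, with liver above both organs. Ripk3, the kinase that starts necroptosis, was 3.45, 3.14 and 2.48 in liver, 16.3, 14.9 and 17.9 in spleen and 27.5, 28.0 and 28.6 in thymus, a difference of -2.65 ± 0.10 (adjusted p 1.37e-10), while its substrate Mlkl was 13.2, 9.73 and 9.57 in liver, 7.81, 6.85 and 7.10 in spleen and 3.38, 2.53 and 2.66 in thymus, a difference of 1.14 ± 0.13 as deposited and -0.12 under column-total scaling. Fasl had too little signal to be tested.

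Downstream, 18 genes of the apoptosome, the caspases and their inhibitors divided into 8 called higher, 9 lower and 1 neither (Dffa, adjusted p 0.159, though called lower with edgeR, at -0.17, and DESeq2, at -0.18). These counts lay near the shares over all genes, 43.6% higher and 45% lower. By a log2 of at least 1, 3 were higher and 5 lower. Under column-total scaling 1 of the 18 was called higher and 15 lower. Casp2, an initiator caspase activated by the PIDD1 complex, was 13.6, 13.1 and 14.7 in liver, 110.3, 98.4 and 98.7 in spleen and 96.3, 118 and 96.6 in thymus, a difference of -2.85 ± 0.08 (adjusted p 6.78e-12). Casp9, the initiator that APAF1 activates, was 36.2, 39.2 and 35.6 in liver, 46.7, 43.3 and 42.7 in spleen and 15.2, 13.9 and 14.0 in thymus, lowest in thymus, and its difference of 0.54 ± 0.07 was -0.79 under column-total scaling.

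Xiap, which binds and blocks caspases, was 116, 121 and 125 in liver, 61.7, 55.2 and 51.2 in spleen and 65.1, 68.5 and 69.8 in thymus, a difference of 0.97 ± 0.07 as deposited and -0.39 under column-total scaling. Its log2 ratio to Apaf1 in the same library was 3.59 ± 0.11 in liver, 0.39 ± 0.09 in spleen and 0.64 ± 0.13 in thymus, a gap of 3.08 between liver and the lymphoid mean. Cycs, cytochrome c, was 261, 302 and 362 in liver, 96.4, 111 and 103 in spleen and 100.1, 93.7 and 99.3 in thymus, a difference of 1.60 ± 0.09 that was 0.24 and not called under column-total scaling, and the mitochondrial nuclease Endog was 10.2, 10.2 and 10.1 in liver, 0.999, 1.04 and 0.721 in spleen and 0.908, 0.981 and 0.581 in thymus, a difference of 2.97 ± 0.13 (adjusted p 2.85e-10). Birc5, survivin, which also serves in mitosis, was 21.0, 31.0 and 24.7 in liver, 315, 269 and 327 in spleen and 98.8, 107 and 85.4 in thymus, a difference of -2.74 ± 0.12. Dffb, the nuclease that cuts DNA in dying cells, differed by -1.81 ± 0.10.

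**Figure D3:**
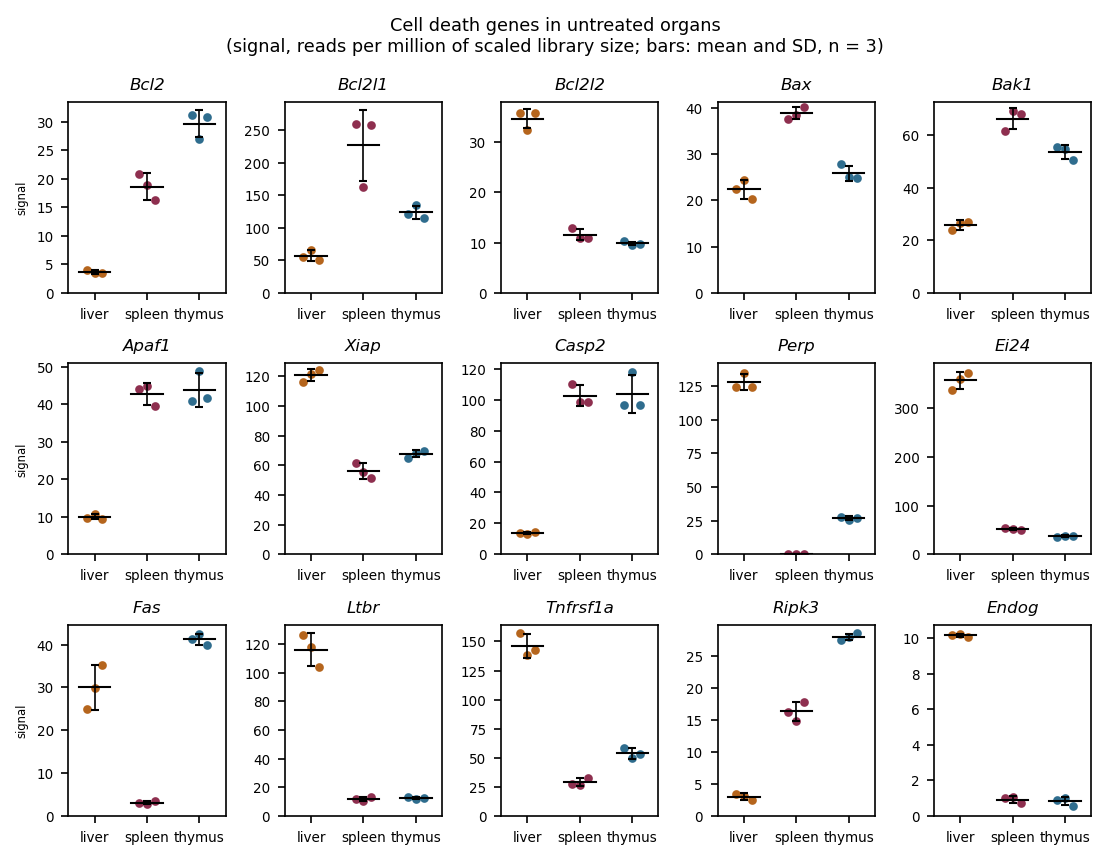
Points are single libraries of the 3 untreated organs, on a linear signal axis that starts at 0 for each gene, with the mean and SD of 3 libraries. Bcl2, Bcl2l1, Bak1, Apaf1, Casp2 and Ripk3 are lowest in liver, Bcl2l2, Xiap, Perp, Ei24, Ltbr, Tnfrsf1a and Endog are highest there, and Fas in liver lies between spleen and thymus.

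DNA repair lists differed in how far their medians lay below the lymphoid mean. In damage signalling 17 of 20 were called lower and 0 higher, Atr, Nbn and Atrip being not called, with a median of -0.97, and in homologous recombination 14 of 17 were lower and 2 higher, with a median of -1.74. By a log2 of at least 1, 10 and 12 members of these 2 lists were lower and 0 and 1 higher. Their medians were -1.33 and -2.20 against spleen and -0.64 and -1.08 against thymus. Clspn, which holds the replication checkpoint, differed by -3.12 ± 0.14, and H2ax, the histone that is phosphorylated at breaks, was 15.7, 20.9 and 14.9 in liver, 128, 118 and 151 in spleen and 88.9, 99.0 and 75.7 in thymus, a difference of -2.63 ± 0.12. Bard1, the partner of BRCA1, was 2.87, 3.93 and 3.45 in liver, 49.6, 54.2 and 50.0 in spleen and 21.0, 25.1 and 20.3 in thymus, a difference of -3.13 ± 0.10, and Brca1 differed by -2.06 ± 0.10. Of the 2 higher genes, Rad51b and Rad51d, the former was 9.32, 11.1 and 20.1 in liver, 6.92, 7.12 and 6.20 in spleen and 4.23, 3.60 and 4.03 in thymus, a difference of 1.23 ± 0.19 as deposited and -0.05 under column-total scaling, and the latter differed by 0.26 ± 0.09 and was 0.16, not called, without liver replicate 2, nor was it called with edgeR (0.21) or DESeq2 (0.20).

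End joining, which repairs breaks in cells at rest as well, was mixed as deposited, with 8 of 12 lower, 4 higher and a median of -0.98. Of these, 6 were lower and 2 higher by a log2 of at least 1. Under column-total scaling 11 were called lower and 0 higher. The Ku subunits parted. Xrcc6, which encodes KU70, was 44.5, 47.8 and 49.6 in liver, 68.5, 84.6 and 71.3 in spleen and 273, 343 and 236 in thymus, a difference of -1.60 ± 0.11, with the thymus far above both other organs. Xrcc5, which encodes KU80, was 56.5, 59.3 and 68.3 in liver, 28.7, 34.4 and 26.8 in spleen and 29.2, 33.8 and 28.4 in thymus, a difference of 1.01 ± 0.10 as deposited and -0.33 under column-total scaling. Lig4, the ligase of this pathway, was 8.57, 6.83 and 8.20 in liver, 3.87, 4.97 and 4.95 in spleen and 63.2, 80.6 and 70.5 in thymus, below thymus and above spleen, so that its difference was -1.19 ± 0.11 against both and 0.72 ± 0.13 against spleen. Polq, of the alternative end joining pathway, differed by -2.99 ± 0.14.

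Excision and mismatch repair had medians nearer to that of all genes. Nucleotide excision repair had 6 of 17 called higher and 9 lower, with a median of -0.25. By a log2 of at least 1, 1 member was higher and 0 were lower. Under column-total scaling 0 were called higher and 16 lower. As deposited, 6 were higher and 5 lower against spleen, with a median of 0.01. Against thymus 5 were higher and 9 lower, with a median of -0.31. Rad23b, which helps XPC find damage, was 217, 243 and 280.1 in liver, 87.4, 99.9 and 89.6 in spleen and 94.2, 98.0 and 105 in thymus, a difference of 1.36 ± 0.08 as deposited and -0.000825 under column-total scaling. Base excision repair had 5 of 19 higher and 10 lower, with a median of -0.46. Of these, 1 was higher and 5 were lower by a log2 of at least 1. The lowest members of the list, Neil3, Fen1 and Lig1, at -2.95 ± 0.11, -2.62 ± 0.11 and -2.26 ± 0.14, also serve replication. Polb, the main polymerase of base excision repair, was 21.4, 23.1 and 22.7 in liver, 20.1, 19.1 and 21.2 in spleen and 25.8, 23.0 and 27.0 in thymus and was not called (adjusted p 0.929). Mismatch repair had 5 of 7 lower and 2 higher, with Pms2 and Msh6 lower by -2.02 ± 0.10 and -1.72 ± 0.10. By a log2 of at least 1, 3 of the 7 were lower and 0 higher.

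Genes of mitosis and DNA replication were lower in liver almost without exception. All 30 mitosis genes were called lower in liver, every one by a log2 of at least 1 and with each liver library below each lymphoid one, against 33.3% of all genes. Their median was -2.78, -3.25 against spleen and -2.21 against thymus. Of 30 replication genes 29 were lower, 26 of them by a log2 of at least 1, with a median of -2.18. Kif11, a spindle motor, was 18.2, 27.0 and 20.1 in liver, 322, 304 and 311 in spleen and 183, 219.8 and 193 in thymus, a difference of -3.50 ± 0.11 (adjusted p 1.32e-11), and Cdc6, which loads the replicative helicase, was 4.79, 7.59 and 7.96 in liver, 208, 225 and 209 in spleen and 38.7, 48.5 and 44.4 in thymus, a difference of -3.77 ± 0.13. In both genes the spleen was above the thymus and the thymus above the liver.

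Markers of blood cells also differed between the organs, each in its own order. The summed level of 7 measured erythroid markers was 48365 to 72368 in spleen, 3949.8 to 6381 in liver and 505 to 1006 in thymus, and that of 10 thymocyte markers was 5744 to 6634 in thymus, 159 to 177 in spleen and 11.5 to 16.3 in liver. That of 8 B cell markers was 1116 to 1337 in spleen, 36.5 to 118 in thymus and 13.6 to 25.2 in liver. Mitosis genes and most replication genes were lowest in liver, as the summed thymocyte and B cell markers were, while the summed erythroid markers were lowest in thymus. The part of these markers in the differences of cell cycle, repair and death genes was not tested.

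Most genes of the G1 machinery were lower in liver, while the cyclin D genes Ccnd1 and Ccnd3 went opposite ways. Of 20 tested, 16 were called lower in liver and 3 higher, 15 and 1 of them by a log2 of at least 1. Ccnd1, cyclin D1, which drives entry into the cycle in epithelial cells, was 99.4, 115 and 89.6 in liver, 28.1, 30.9 and 34.6 in spleen and 18.4, 13.0 and 17.9 in thymus, a difference of 2.14 ± 0.12 (adjusted p 3.93e-09), and stayed higher under column-total scaling, at 0.79. Ccnd3, the cyclin D of lymphocytes, was 37.2, 37.5 and 31.1 in liver, 364, 361 and 393 in spleen and 376, 416 and 346 in thymus, a difference of -3.40 ± 0.08. The within-library log2 ratio of Ccnd1 to Ccnd3 was 1.52 ± 0.10 in liver, -3.58 ± 0.10 in spleen and -4.54 ± 0.40 in thymus. E2f2, an activator of S-phase genes, had the lowest value of all 24 lists, at 9.48, 12.9 and 9.99 in liver, 792, 660.0 and 691 in spleen and 184, 213 and 183 in thymus, a difference of -5.05 ± 0.10 (adjusted p 2.53e-13), and the retinoblastoma gene Rb1 was 12.9, 11.9 and 9.81 in liver, 188, 186 and 157 in spleen and 49.5, 61.2 and 55.6 in thymus, a difference of -3.05 ± 0.10. Both genes were lowest in liver and highest in spleen. E2f5, an E2F family member, and Cdk6, a cyclin D kinase, were the other 2 called higher, by 0.53 ± 0.14 and 0.49 ± 0.16 as deposited, and both were lower under column-total scaling, at -0.69 and -0.80. Cdk6 was 0.34 and not called without liver replicate 1.

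Among CDK inhibitors 5 of 7 were lower in liver and 2 higher, 4 and 1 of them by a log2 of at least 1. Cdkn2d, which blocks the cyclin D kinases, was 7.78, 8.71 and 6.09 in liver, 129.7, 95.4 and 123 in spleen and 81.4, 75.8 and 63.1 in thymus, a difference of -3.54 ± 0.13, and Cdkn1b, p27, was 16.6, 17.4 and 14.1 in liver, 67.9, 46.2 and 64.5 in spleen and 51.8, 56.1 and 51.1 in thymus, a difference of -1.77 ± 0.12. Cdkn1c, the imprinted gene of p57, was higher in liver, at 12.3, 14.3 and 13.4 in liver, 0.888, 1.12 and 1.10 in spleen and 6.18, 5.90 and 6.56 in thymus, a difference of 2.11 ± 0.10 (adjusted p 9.09e-10), and 0.83 under column-total scaling.

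Promoter letters of 3 mitosis genes are shown because the list moved as 1 and because genes of mitosis are known to share CCAAT boxes, which the factor NF-Y binds. The word CCAAT, on either strand, was found in 21 of 25 windows of mitosis genes (84%) and in 17 of 25 of replication genes (68%), against 33.8% of all windows and 31.8% of those of plasma protein genes. These windows covered 24 of the 30 mitosis genes and 23 of the 30 replication genes. E2F words (TTTCCCGC or TTTGGCGC) were found in 6 of 25 replication windows (24%), 0 of 25 mitosis windows and 1.3% of all. The 120 bases before the start follow with CCAAT or its reverse complement in capitals.
Ccnb2, chr9:70421555-70421674, - strand: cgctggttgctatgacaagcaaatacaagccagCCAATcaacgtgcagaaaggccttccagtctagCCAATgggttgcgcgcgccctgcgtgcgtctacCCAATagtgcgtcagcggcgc
Ccnb1, chr13:100786487-100786606, - strand: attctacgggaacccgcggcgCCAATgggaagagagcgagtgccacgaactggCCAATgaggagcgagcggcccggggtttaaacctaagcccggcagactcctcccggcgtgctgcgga
Top2a, chr11:99024190-99024309, - strand: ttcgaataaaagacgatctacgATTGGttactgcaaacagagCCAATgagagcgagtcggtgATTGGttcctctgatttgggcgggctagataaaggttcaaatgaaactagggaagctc
The absence of a word says only that its letters are not in the window.

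Most genes for protection against radicals and peroxides had a higher RNA signal in liver as deposited. Of 24 genes 21 were called higher and 2 lower, 16 of them higher by a log2 of at least 1, with a median of 1.70. Catalase, Cat (chr2:103453904-103485153), which breaks down hydrogen peroxide, was 3702, 3676 and 3667 in liver, 309, 221 and 256 in spleen and 86.3, 82.1 and 84.4 in thymus, a difference of 4.63 ± 0.09 (adjusted p 2.1e-13). The superoxide dismutases Sod1, of the cytosol, and Sod2, of mitochondria, were 1103, 1141 and 1178 in liver, 302, 287 and 303 in spleen and 142, 134 and 126 in thymus and 266, 278 and 285 in liver, 55.5, 57.6 and 56.3 in spleen and 35.2, 32.2 and 35.1 in thymus, differences of 2.51 ± 0.06 and 2.64 ± 0.06. The peroxiredoxins Prdx1 and Prdx6 differed by 3.36 ± 0.07 and 2.67 ± 0.07. Each of these 5 genes was above every lymphoid library and stayed higher under column-total scaling, where the list median was 0.35 and 8 members changed sign. With that scaling 13 of the 24 were called higher and 10 lower. As deposited, 16 were higher and 5 lower against spleen, with a median of 0.97. Against thymus 23 were higher and 1 lower, with a median of 2.17.

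Prdx2, the peroxiredoxin of red cells, was 187, 199 and 178 in liver, 1854, 1665 and 2073 in spleen and 156, 149 and 142 in thymus, high in spleen beside the erythroid markers, whose part was not tested. Slc7a11, which imports cystine for glutathione, was 5.96, 7.16 and 6.48 in liver, 29.9, 31.3 and 35.2 in spleen and 47.1, 62.9 and 47.1 in thymus, a difference of -2.56 ± 0.11. Hmox1, which breaks down haem, was 66.3, 60.1 and 50.9 in liver, 239, 167 and 252 in spleen and 16.3, 15.0 and 14.0 in thymus and was not called (adjusted p 0.828), with liver between the other organs.

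At the other end of the table, the lowest difference among the 10 genes chosen for it was that of Ccl21a, a chemokine gene with near-identical copies that could share its reads, at -6.57 ± 0.31. Others of the 10 follow. Myb, a transcription factor of blood cell precursors, was 0.749, 1.33 and 0.636 in liver, 50.8, 62.6 and 49.9 in spleen and 217, 271 and 247 in thymus, a difference of -6.39 ± 0.14, Cxcr4, a chemokine receptor, was 1.73, 1.54 and 1.36 in liver, 117, 108 and 124 in spleen and 162, 191 and 162 in thymus, a difference of -6.12 ± 0.09, and Satb1, a chromatin organiser of thymocytes, was 3.13, 2.39 and 2.00 in liver, 29.5, 30.9 and 21.4 in spleen and 1000.5, 1199 and 1078 in thymus, a difference of -5.86 ± 0.13. Fcho1, an endocytic factor, was 1.24, 1.24 and 0.333 in liver, 97.8, 112 and 114 in spleen and 69.1, 77.6 and 66.5 in thymus, a difference of -6.01 ± 0.20, and was highest in spleen.

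**Figure D4:**
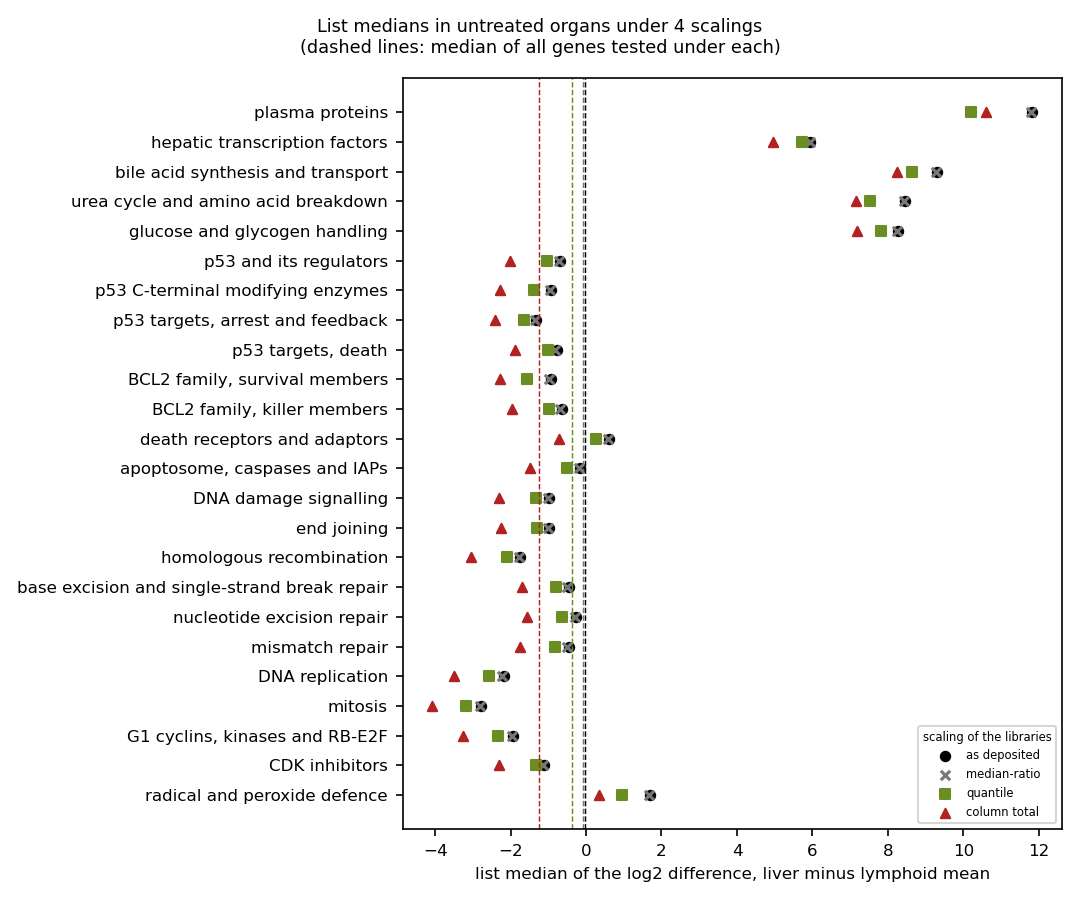
Medians of the 24 lists in untreated organs under the deposited scaling and 3 others, with dashed lines at the median of all genes under each. Column-total scaling moves the median of all genes from -0.03 to -1.26 and every list median to the left, and the death receptor list, at 0.62 as deposited, moves to -0.73.

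The baseline contrast was then set beside the same contrast 3 h after X-rays, in separate libraries. Hepatocyte RNA was read at higher levels in some of these lymphoid libraries, with Alb at 325 and 284 in spleen replicates 2 and 3 and 951 in thymus replicate 3, against a mean of 269454 in irradiated liver. Of 15257 genes 12736 (83.5%) were called there, and the change of the contrast passed the test in 3956 of 15654 genes (25.3%), 1833 upward (11.7%) and 2123 downward (13.6%). That count rested in part on single libraries, since it was 2473 without irradiated liver replicate 2 and 2636 without untreated liver replicate 2. Arrest targets had 14 of 20 members with a contrast that fell and 1 that rose, and death targets 9 of 15 and 1. Bbc3 went from 0.60 at rest to -3.47 after X-rays, a change of -4.07 ± 0.38 (adjusted p 5.04e-06), as its irradiated signal was 7.35, 1.66 and 5.06 in liver, 58.4, 57.7 and 51.4 in spleen and 35.9, 50.4 and 48.9 in thymus. Bax went from -0.50 to -2.35, a change of -1.85 ± 0.12 (adjusted p 9.74e-08). Pmaip1 and Fas changed by -1.53 ± 0.22 and -1.55 ± 0.15, and Ei24, still higher in liver, by -1.93 ± 0.10.

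Plk2 went from 1.95 to -0.52, a change of -2.47 ± 0.25 (adjusted p 1.09e-05), with irradiated signal of 19.5, 33.0 and 33.7 in liver, 33.0, 51.6 and 45.4 in spleen and 37.6, 38.0 and 38.2 in thymus. Cdkn1a changed by -0.96 ± 0.19. The contrasts of Trp53, Bcl2 and Bcl2l1 changed by -0.01, 0.03 and -0.08, none of which passed (adjusted p 0.951, 0.909 and 0.829). A p above the threshold does not show that these contrasts were the same.

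**Figure D5:**
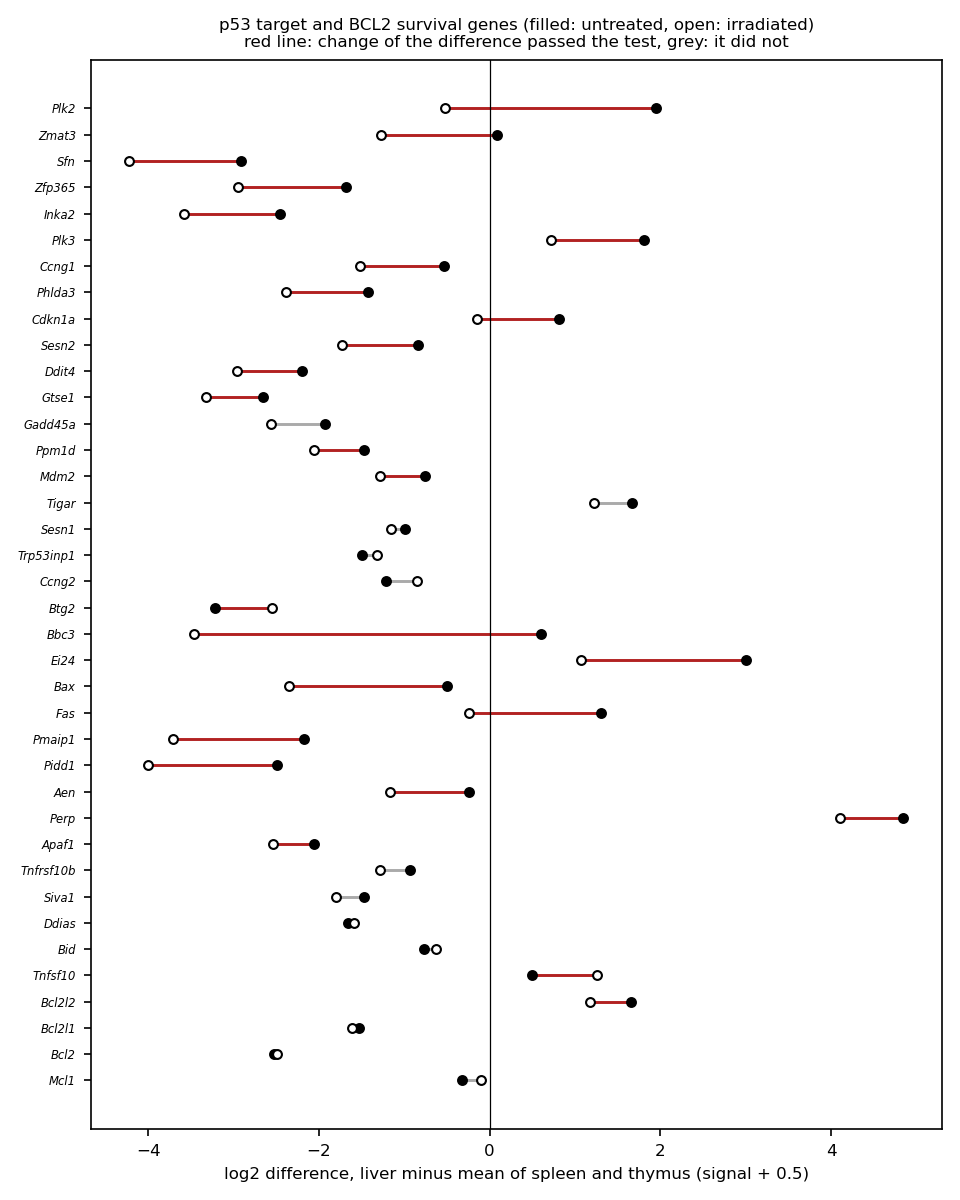
Rows are p53 target genes and BCL2 survival genes, with the log2 difference between liver and the mean of spleen and thymus in untreated libraries as filled points and in irradiated libraries as open points. Bbc3 moves from 0.60 to -3.47 and Plk2 from 1.95 to -0.52, while Bcl2 stays near -2.52.

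In the single-end table, normalised on its own, 8964 of 15063 genes (59.5%) were called. These 9 wt libraries are titled xray, but the 3 of spleen carry a treatment label of control, so the contrast may mix treated and untreated organs and its values are given as a description. The contrasts read there were -1.20 for Trp53, -1.90 for Bcl2, 1.42 for Bcl2l2, -1.68 for Apaf1, -2.41 for Casp2, 4.10 for Perp, 2.55 for Ei24, 3.55 for Cat and -1.78 for Btg2. Those of Bbc3 and Plk2, -0.98 and 1.74, were each between the untreated and the irradiated value of the paired-end table. All 30 mitosis genes and 29 of 30 replication genes were called lower there too, against 30.7% of all genes, and all 25 plasma protein genes higher, against 28.8%.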

How the data were processed

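RNA was sequenced from whole liver, spleen and thymus of mice. The authors deposited a signal in 1 table for each of the paired-end and single-end libraries. The column sums and low values of the deposited signal showed that it is reads per 1000000 of a composition-scaled library size. Names given in the submitters' processing notes are edgeR and the build mm10. For the aligner and counter, nothing is given in the sources used here. Although the kit keeps strand, per the labels' protocols, whether counting used it is not stated. Tests had been laid out for CPM and were kept for this signal. All values in the paired-end columns were whole multiples of 1 read within 0.01, so whole reads were recovered. Of the columns of the paired-end table, 18 name no library of the series and were not used. Symbols were matched by gene ID to RefSeq (GRCm38.p6) for 18380 of 19001 rows (96.7%).

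The main test was limma 3.58.1 in R 4.3.3 (trend and empirical Bayes), run on log2(signal + 0.5) for genes reaching a signal of 1 in 3 or more of the 9 libraries. P-values were adjusted by Benjamini-Hochberg across every gene tested, and 0.05 was the threshold. Another 9 irradiated and 9 single-end libraries were each fitted alone, and the change with X-rays in 18 libraries. Alternatives were pseudocounts of 0.1 and 2, other filters and scalings, no trend, a replicate block, edgeR 4.0.16 and DESeq2 1.42.0 on the recovered reads, all 18 libraries, and each library left out with the same genes tested. The code was tested on simulated data.

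All members of the p53, death and CDK inhibitor lists could be named. In each other list these were up to 5 called genes with the smallest p in each direction with a mean of at least 5, and up to 3 uncalled genes with the highest means, and over all genes the 10 highest and 10 lowest. The members and lists were chosen with earlier results of these data known. A few genes of these lists are not reported here by name.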

Additional observations from a re-analysis of the deposited data

Results flagged for a closer look

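A test of the change itself, in 1 limma fit over 18 libraries with Benjamini-Hochberg adjustment, gave 12 named genes whose difference between liver and lymphoid organs was itself different 3 h after X-rays by at least 1 on the log2 scale. They came from 135 genes named in the text, and all but Ass1 belong to the p53 and death lists. Over all 15654 genes, a change of any size passed upward in 11.7% and downward in 13.6%. The share of all genes with a change of at least 1 is not given here. Bbc3, Plk2, Ei24, Bax, Fas and Pmaip1 changed by -4.07, -2.47, -1.93, -1.85, -1.55 and -1.53. Among the other p53 targets the difference of Pidd1, which activates caspase-2, changed by -1.51, that of Zmat3, an RNA-binding protein, by -1.36, that of Sfn, which restrains mitosis, by -1.30 and that of Plk3, a polo-like kinase, by -1.09. Bok, of the BCL2 family, changed by -1.23. Ass1, of the urea cycle and 1 of the 9 hepatocyte markers, changed by -1.59. The other 8 hepatocyte markers had changes of -1.50 to -2.45, none of which passed the test. Among them Alb was 25.7, 325 and 284 in irradiated spleen and 33.5, 63.5 and 951 in irradiated thymus, against 15.1 to 29.5 in untreated spleen and 14.9 to 116 in untreated thymus, and the part of hepatocyte RNA in the change of Ass1 was not tested. All 12 changes were negative, kept their sign and stayed past the threshold in each alternative run, including column-total scaling, which was added after the data were seen. With a pseudocount of 2 the change of Sfn was -0.80. No group held enough libraries for a test of single outlying samples.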

How the results depend on the processing

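Scaling each column to its own total moved the calls of the untreated contrast to 3132 higher and 10950 lower. It turned the sign of Atr to -1.16, Bad to -0.84, Bbc3 to -0.60, Bok to -0.30, Casp8 to -1.07, Casp9 to -0.79, Cdk6 to -0.80, Cdkn1a to -0.49, Cflar to -0.19, Cop1 to -1.28, E2f5 to -0.69, Ehmt2 to -1.32, Fas to -0.020, Hipk2 to -0.85, Hmox1 to -1.31, Kat8 to -1.23, Mlkl to -0.12, Nbn to -1.30, Rad23b to -0.000825, Rad51b to -0.046, Rad51d to -1.07, Rchy1 to -1.32, Smyd2 to -0.84, Tnfsf10 to -0.79, Trp53bp2 to -0.60, Xiap to -0.39, Xrcc5 to -0.33, Zmat3 to -1.20 and the median of the death receptor list to -0.73. With quantile scaling the sign turned for Casp8 (-0.13), Cop1 (-0.41), Ehmt2 (-0.42), Hmox1 (-0.37), Kat8 (-0.27), Nbn (-0.29), Rad51d (-0.093) and Rchy1 (-0.34). Of these, Atr, Cop1, Ehmt2, Hmox1, Kat8, Nbn, Rchy1 and Zmat3 were not called as deposited. No other setting run turned the direction of a named gene called as deposited or in that setting, or of a list median. Turns of genes called in neither run were not counted. With quantile scaling Bad, Cdk6, E2f5, Hipk2, Smyd2 and Tnfsf10 lost their calls, and Atrip, Dffa and Polb were called lower.

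Leaving out 1 library at a time gave 13087 to 13324 calls in the untreated contrast, 6452 to 6578 higher and 6635 to 6746 lower. Against spleen these were 12662 to 12983 and against thymus 12748 to 13059, in the irradiated libraries 12241 to 12673 and in the single-end libraries 7855 to 9543. The change with X-rays gave 2473 to 5425 calls, 1236 to 2229 upward and 1237 to 3196 downward, with the cause of that spread not tested. The labels do not say that replicate numbers mark shared animals, and the numbers were not taken as pairs. All 9 same-numbered pairs of untreated libraries had positively correlated deviations (range 0.0430 to 0.326), 5 of them above 0.1. In 12 of 18 cases a library was most like its own number in another organ, and in 14 of 18 among irradiated libraries. The split of Xist and Y-linked signal also followed the numbers in untreated organs. Whether the organs share animals was not tested. The replicate block gave 13442 calls in the untreated contrast, 12818 in the irradiated, 9208 in the single-end libraries and 4171 for the change with X-rays, and no named gene changed its call under it. Whole reads gave 13214 calls with edgeR and 13280 with DESeq2. The 6 libraries with Y-linked signal, an alternative chosen after the data were seen, gave 6352 higher and 6524 lower. With 3 libraries an organ, differences near 0 are the least certain. Of the 24 list medians 7 were above 0 under every setting other than column-total scaling.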
